A study of Mus musculus with 8 samples.

Results

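Mitosis is run by a set of genes that dividing cells switch on in G2, the phase between DNA replication and division. The list studied here holds 44 such genes, chosen by name for their role in mitosis and in G2, and grouped by the step they serve: cyclins and kinases, spindle and chromosomes, kinetochore and spindle checkpoint, anaphase, and cytokinesis. All 44 have a probe on the arrays, named through the RefSeq accession of the probe, and each gene was represented by its brightest probe. Of the 44, 41 gave a signal strong enough to be tested, out of 14312 genes tested in all.

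The study compared hepatocellular carcinomas (HCC) of male mice without miR-122, the most abundant microRNA of hepatocytes, with livers of male mice of like age that carried the floxed miR-122 gene. The strain background of both was a mix of C57BL/6J with 129S/Svj. Each of 8 Agilent arrays with 2 colours held RNA of 1 tumor labelled with Cy5 and control liver RNA labelled with Cy3. No array had the dyes swapped, so an effect of the dye and an effect of the tumor cannot be told apart. Tumor and genotype also go together: no tumor-free knockout liver was analysed here, so loss of miR-122 and tumor growth cannot be told apart. The labels name neither the animals nor the promoter that drove Cre, nor do they say whether the control RNA was pooled, so the p-values measure only the spread between these arrays. In bulk tissue, fewer cells of a type and less RNA per cell cannot be told apart.

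The share of spots well above background was 40.0% to 53.3% in the tumor channel and 46.5% to 55.5% in the control channel. Array 8 had the dimmest tumor channel, with an upper quartile of Cy5 intensity of 213, against 378 to 606 on the other arrays. The control channel of array 8 also held skeletal muscle transcripts: over 5 muscle marker genes, the median log2 ratio of tumor over control was -3.92 there and -0.29 to 0.13 on the others. The control channels of arrays 1 and 2 were more alike than any of the 27 other pairs of arrays. Over 18657 probes, the SD of their difference was 0.25 on the log2 scale, against 0.32 to 0.54 for the other pairs. With arrays 1 and 2 averaged to 1 replicate, 25 members passed as higher, where 27 did with all 8 arrays kept apart. Without arrays 7 and 8, 29 did.

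Entry into mitosis depends on Cdk1, a kinase that is active only when bound to a cyclin. Kinetochores, protein complexes on the centromeres, then attach the chromosomes to the spindle, and a checkpoint holds the cell until every chromosome is attached. The anaphase-promoting complex (APC), a ubiquitin ligase, ends this wait by marking securin and the B cyclins for destruction, after which the chromosomes part and the cell is pinched apart by cytokinesis. In adult liver nearly all hepatocytes rest outside the cycle, and these genes are expressed at low levels until the liver regenerates or a tumor grows.

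Most of the measured genes of mitosis were higher in the tumors. At an adjusted p under 0.05 and a difference of at least 2-fold, 27 of the 41 members tested were higher in HCC than in control liver (65.9%), where 9.54% of all genes tested were. Ccnf was lower, where 5.94% of all genes were, and 13 members did not pass in either direction. The values are log2 ratios of tumor over control, so that 1 stands for 2-fold, averaged over the 8 arrays and tested against 0 with limma, with Benjamini-Hochberg adjustment over all genes tested. The median log2 ratio was 1.39 over the 41 members and 0.03 over all genes. The ratio was above 0 on all 8 arrays for 38 of the 41, where it was for 17.1% of all genes. In 30 of the 41 the lowest tumor level lay above the highest control level, where it did in 8.31% of all genes.

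Many of these genes were near or below the limit of detection in control liver. To be tested, a gene had to exceed background clearly in either channel on 4 or more arrays, and some members entered through the tumor channel alone, which fixes the sign of their ratio. Of the 41 members, 25 were well above background in all 8 control channels and 8 in none. Among the 27 members measured in the control channel on at least 4 arrays, 21 were higher and 1 was lower, where 9.33% of the 13776 genes so measured were higher. By step, over all 41, 8 of 13 cyclins and kinases, 4 of 8 spindle and chromosome genes and 5 of 8 kinetochore and checkpoint genes were higher. So were 3 of 4 anaphase genes and 7 of 8 cytokinesis genes. These counts include members that entered through the tumor channel alone. In the same order of steps, 9, 2, 4, 3 and 7 of those tested were above background in all 8 control channels.

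**Figure D1:**
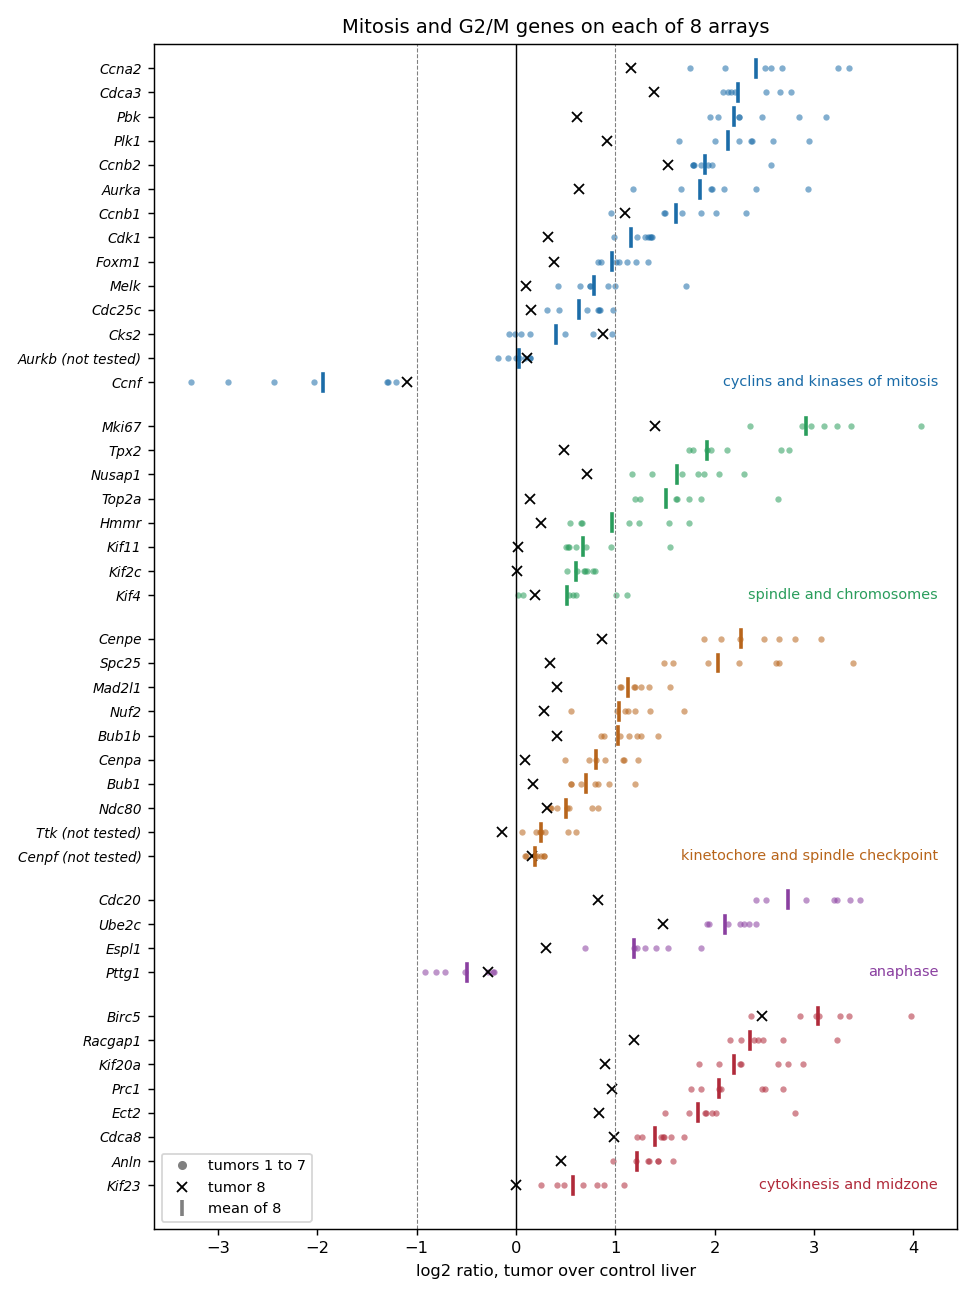
Log2 ratio of tumor over control (horizontal axis) of the 44 members, grouped by step, on each of the 8 arrays; dots are tumors 1 to 7, the cross is tumor 8, the bar is the mean, and dashed lines mark 2-fold in either direction. Most members lie right of 0 on every array, Ccnf and Pttg1 lie left of it on every array, and tumor 8 is the lowest of the 8 for 35 of the 41 members tested.

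The promoters of many of these genes share a pair of short motifs that the choice of the members did not use. The cell cycle genes homology region (CHR) is known as the element through which the DREAM complex keeps G2/M genes silent in resting cells, and the CCAAT box, bound by NF-Y, often lies close to it. RefSeq gave a promoter window for 37 of the 44 members, with 300 bases from 250 before to 50 after the transcription start (build GRCm38.p6). The CHR letters TTTGAA, searched on both strands (TTCAAA on the other), were found in the windows of 27 of the 37 members (73.0%) and of 20.2% of 27025 genes. The CCAAT letters, searched on both strands (ATTGG on the other), were found in 28 of the 37 (75.7%) and in 41.1% of all genes. The motifs can share no more than an end base, and 24 members (64.9%) held both, against 8.0% of all genes. A match describes the letters in the window and is not evidence of binding.

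Both motifs are shown for the member with the largest log2 ratio in each step among those whose window held the pair, and for Ccnf, the member that was lower. The windows run 5′ to 3′ on the strand of the gene, with the motifs in capitals. In the window of Cdc20 the CHR begins 18 bases before the start, with CCAAT boxes 53 and 8 bases before it. The window of Ccnf holds the CHR at 14 and at 130 bases before the start and CCAAT boxes at 107 and 147 bases before it, so the member that fell held both motifs too.
Cdca3, chr6:124829926-124830225, plus strand: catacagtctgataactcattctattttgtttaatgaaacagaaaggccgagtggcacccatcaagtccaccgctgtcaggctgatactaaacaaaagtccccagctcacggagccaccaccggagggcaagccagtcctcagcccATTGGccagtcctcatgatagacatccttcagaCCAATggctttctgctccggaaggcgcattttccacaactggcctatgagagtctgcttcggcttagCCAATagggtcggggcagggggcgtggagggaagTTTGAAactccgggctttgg
Mki67, chr7:135716330-135716629, minus strand: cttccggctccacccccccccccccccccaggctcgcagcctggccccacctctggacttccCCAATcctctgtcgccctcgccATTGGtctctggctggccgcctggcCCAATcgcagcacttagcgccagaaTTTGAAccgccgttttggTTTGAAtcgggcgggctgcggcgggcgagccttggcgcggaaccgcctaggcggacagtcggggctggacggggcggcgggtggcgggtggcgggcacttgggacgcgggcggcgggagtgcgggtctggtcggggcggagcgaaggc
Spc25, chr2:69206164-69206463, minus strand: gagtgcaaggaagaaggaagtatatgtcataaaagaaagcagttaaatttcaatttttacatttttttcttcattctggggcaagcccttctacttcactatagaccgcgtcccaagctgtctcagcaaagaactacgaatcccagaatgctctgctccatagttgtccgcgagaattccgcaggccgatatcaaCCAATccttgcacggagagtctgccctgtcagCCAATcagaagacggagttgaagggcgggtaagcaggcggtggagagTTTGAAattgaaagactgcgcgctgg
Cdc20, chr4:118437294-118437593, minus strand: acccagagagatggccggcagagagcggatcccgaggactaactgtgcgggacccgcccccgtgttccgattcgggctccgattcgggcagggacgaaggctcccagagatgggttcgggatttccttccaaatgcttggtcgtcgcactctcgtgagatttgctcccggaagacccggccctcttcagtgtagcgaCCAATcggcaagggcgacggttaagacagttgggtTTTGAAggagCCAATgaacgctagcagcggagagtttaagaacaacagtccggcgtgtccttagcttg
Racgap1, chr15:99651607-99651906, minus strand: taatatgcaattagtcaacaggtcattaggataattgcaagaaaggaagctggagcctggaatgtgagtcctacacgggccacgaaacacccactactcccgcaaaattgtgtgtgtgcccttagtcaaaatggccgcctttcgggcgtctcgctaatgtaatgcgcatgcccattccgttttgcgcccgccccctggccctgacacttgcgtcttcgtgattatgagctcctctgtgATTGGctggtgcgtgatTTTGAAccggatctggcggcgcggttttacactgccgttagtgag
Ccnf, chr17:24251360-24251659, minus strand: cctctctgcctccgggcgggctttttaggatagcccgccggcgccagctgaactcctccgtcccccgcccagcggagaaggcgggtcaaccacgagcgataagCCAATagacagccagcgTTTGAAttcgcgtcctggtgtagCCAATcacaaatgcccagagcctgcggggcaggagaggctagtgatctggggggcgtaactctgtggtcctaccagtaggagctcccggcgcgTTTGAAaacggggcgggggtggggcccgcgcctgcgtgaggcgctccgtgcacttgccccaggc

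The motifs were found both in members that passed as higher and in members that did not. Among the members with a window, the CHR was found in 17 of 23 that were higher and in 7 of 11 that did not pass, and CCAAT in 18 of 23 and in 7 of 11. The windows of Birc5, Mad2l1, Nuf2 and Nusap1, which were higher, and of Melk and Pttg1, which did not pass, held neither motif.

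Among the cyclins and kinases, cyclins A and B, the kinases that act with them and Cdca3 were higher in the tumors, and cyclin F was lower. Cyclin A2 (Ccna2), which binds Cdk2 in S phase and Cdk1 in G2, had log2 levels of 7.99, 9.28 and 10.09 (lowest, median and highest of 8) in the tumors and of 6.53, 6.70 and 6.83 in control livers. The channels did not overlap, and the gene rose by 2.42 ± 0.73 on the log2 scale (SD, n = 8 arrays, 5.35-fold, limma adjusted p = 3.17e-05). Cdca3, part of a ubiquitin ligase that removes the Cdk1 inhibitor Wee1, had levels of 8.81, 9.70 and 10.35 in the tumors and of 7.05, 7.45 and 7.69 in control livers. It too was separated on every array and rose by 2.24 ± 0.43 (4.72-fold, limma adjusted p = 4.06e-06).

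The B cyclins, the partners of Cdk1 in mitosis, rose in the tumors too. Ccnb1 had levels of 7.44, 8.21 and 8.81 in the tumors and of 6.46, 6.58 and 6.80 in control livers, and rose by 1.61 ± 0.46 (3.06-fold). The 2 other probes of Ccnb1, not above background in any control channel, had ratios of 0.75 and 0.56, and with the mean of all probes the gene missed the 2-fold limit (0.97). Ccnb1 also has a pseudogene with a near-identical sequence, which a probe may not tell apart from it. Ccnb2 rose by 1.90 ± 0.30 (3.74-fold), with a ratio of 2.56 in tumor 1 and of 1.53 to 1.97 in the others. Cdk1 rose by 1.15 ± 0.36 (2.22-fold), with ratios of 0.98 to 1.37 on arrays 1 to 7 and 0.32 on array 8. Its control channel was above background on 1 array, so the size of this rise rests on a control level near the floor. The other probes of Cdk1, too dim to test, had ratios of 0.16 and -0.0072.

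Other mitotic kinases rose as well. Plk1, which drives entry, spindle assembly and cytokinesis, rose by 2.13 ± 0.62 (4.39-fold), with levels of 8.25, 9.99 and 11.32 in the tumors and of 7.23, 7.68 and 8.43 in control livers. The channels of Plk1 overlapped over arrays, but the ratio was above 0 within each array (lowest 0.91). Aurka, the kinase of the spindle poles, rose by 1.86 ± 0.71 (3.62-fold) and ranged from 0.64 in tumor 8 to 2.94 in tumor 1. Pbk, a mitotic kinase of the MAPK kinase family, rose by 2.19 ± 0.75 (4.57-fold), with a control channel above background on 2 arrays.

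Cyclin F (Ccnf) was the only member that fell at this threshold. It is an F-box protein, the part of a ubiquitin ligase that binds the targets, and its level normally peaks in G2. Tumor levels were 7.57 on array 8, 7.86 on array 7 and 8.39 to 8.91 on the other arrays. Control levels were 11.72 and 11.85 on arrays 1 and 2, 9.996 to 10.42 on arrays 3 to 7, and 8.67 on array 8. The channels overlap across arrays, yet the tumor was the lower one on each of the 8. The ratio fell by 1.94 ± 0.85 on the log2 scale (3.84-fold lower, limma adjusted p = 0.000253), with values from -3.27 to -1.097. Ccnf has 1 probe on the array, so no second probe bears on the result. It kept its call with every array left out in turn and with arrays 1 and 2 averaged (-1.78).

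The other members of this step did not pass. Foxm1, the transcription factor that switches on many G2/M genes, had levels of 7.28, 7.76 and 8.10 in the tumors and of 6.46, 6.79 and 6.90 in control livers. Its ratio of 0.97 ± 0.29 had an adjusted p of 7.8e-05 (limma) and lay just under the 2-fold limit. Without array 8 the ratio was 1.05 and passed. A second probe of Foxm1, too dim to test, had a ratio of 0.28. Cks2, a small protein that binds Cdk1, had levels of 8.22, 8.91 and 9.53 in the tumors and of 8.14, 8.38 and 9.35 in control livers, with a ratio of 0.40 ± 0.43 that was above 0 on 6 arrays (limma adjusted p = 0.0376). Melk (0.78 ± 0.47), a kinase of proliferating cells, and Cdc25c (0.64 ± 0.30), a phosphatase that activates Cdk1, were above background in no control channel. As means over the arrays, their tumor levels were at least 1.67-fold and 1.53-fold above the control signal or its floor. On array 8 alone the ratios were 0.10 and 0.15. Aurkb, the kinase of the chromosomal passenger complex, was not above background in any channel and was not tested.

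**Figure D2:**
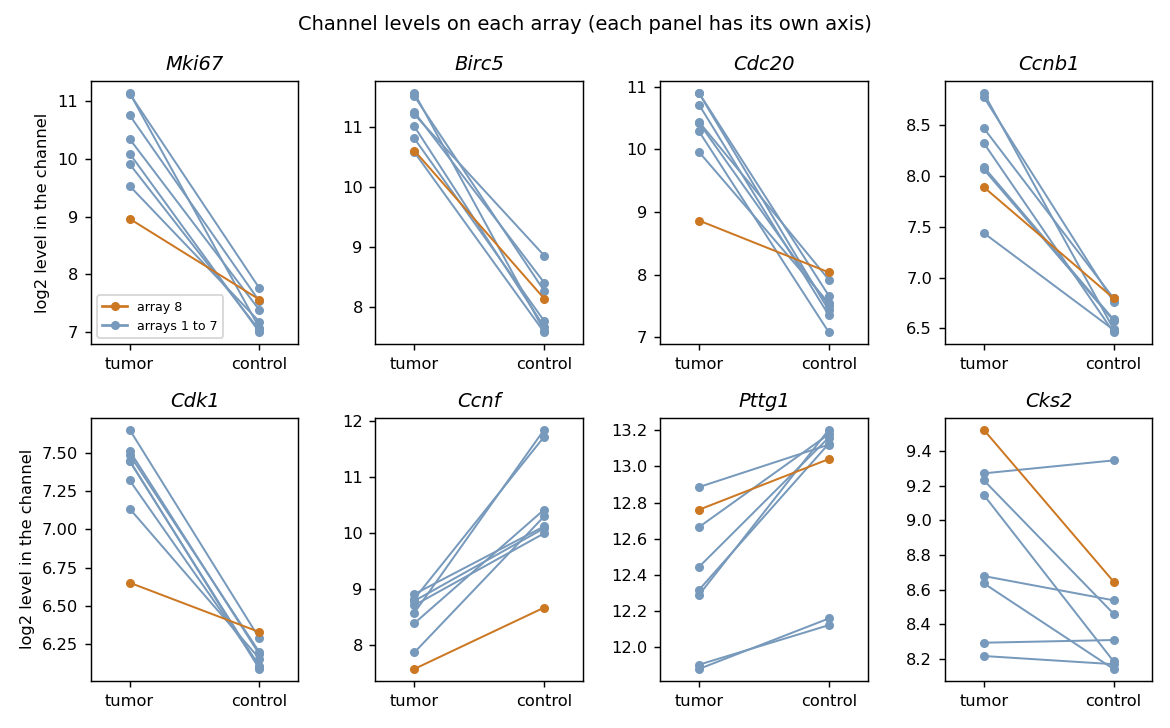
Log2 level after normalization (vertical axis, own scale for each gene) of Mki67, Birc5, Cdc20, Ccnb1, Cdk1, Ccnf, Pttg1 and Cks2 in the tumor channel (left) and the control channel (right) of each array, joined by a line per array, with array 8 in orange. Tumor and control levels are apart for Mki67, Birc5, Cdc20, Ccnb1 and Cdk1, the lines of Ccnf and Pttg1 point the other way on all 8 arrays, and those of Cks2 are mixed.

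Of the spindle and chromosome genes, Mki67, Tpx2, Nusap1 and Top2a were higher in the tumors and 3 kinesins and Hmmr did not pass. Mki67, the Ki-67 protein that coats mitotic chromosomes and is used as a marker of dividing cells, had levels of 8.96, 10.22 and 11.14 in the tumors and of 6.99, 7.28 and 7.76 in control livers. It rose by 2.92 ± 0.78 (7.58-fold, limma adjusted p = 1.57e-05), with no overlap of the channels, and its other probe gave 3.07. Tpx2, which nucleates spindle microtubules and activates Aurka, had levels of 6.75, 8.25 and 9.03 in the tumors and of 6.10, 6.26 and 6.38 in control livers. It rose by 1.93 ± 0.70 (3.80-fold), with a ratio of 0.48 in tumor 8 and 1.74 to 2.75 in the others. Its control channel was above background on 2 arrays, so the size of the rise rests on a control near the floor. A second probe of Tpx2, too dim to test, had a ratio of 0.12.

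Nusap1, which bundles microtubules near chromosomes, rose by 1.62 ± 0.51 (3.08-fold). Top2a, the topoisomerase that untangles sister chromatids, rose by 1.51 ± 0.71 (2.84-fold), with a ratio of 0.14 in tumor 8 and of 1.19 to 2.64 in the others. The control of Top2a was above background on 2 arrays and that of Nusap1 on 5, and with the processed signals of the scanner software their ratios were 3.24 and 3.503. In these genes the lowest tumor was tumor 8, as it was for most members.

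Hmmr, a spindle protein and hyaluronan receptor, had levels of 8.503, 9.04 and 9.41 in the tumors and of 7.63, 8.11 and 8.29 in control livers. Its ratio of 0.97 ± 0.52 (limma adjusted p = 0.00109) did not reach 2-fold, and it passed without array 2, 3, 7 or 8 (1.01 to 1.07). The motors Kif11 (0.67 ± 0.44), which pushes the spindle poles apart, and Kif2c (0.60 ± 0.25), which shortens microtubules at kinetochores, were above background in no control channel. Their bounds on the mean over arrays were 1.58-fold and 1.503-fold. The chromosome motor Kif4 had levels of 6.41, 6.85 and 7.33 in the tumors and of 6.06, 6.20 and 7.31 in control livers, with a ratio of 0.51 ± 0.41 (limma adjusted p = 0.0107). Its channels overlapped through 1 control array, and it too has a pseudogene of near-identical sequence.

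Of the kinetochore and checkpoint genes, Cenpe, Spc25, Mad2l1, Nuf2 and Bub1b were higher in the tumors, the last 2 with controls at or near the floor. Cenpe, the kinesin that carries chromosomes to the middle of the spindle, had levels of 7.74, 9.05 and 9.73 in the tumors and of 6.45, 6.68 and 6.87 in control livers. The channels did not overlap, and Cenpe rose by 2.26 ± 0.69 (4.80-fold, limma adjusted p = 3.36e-05). Spc25, a subunit of the Ndc80 complex that grips microtubules, had levels of 10.92, 11.99 and 12.16 in the tumors and of 8.66, 9.80 and 10.58 in control livers. It rose by 2.03 ± 0.92 (4.08-fold, limma adjusted p = 0.000319), from 0.34 in tumor 8 to 3.39 in tumor 3. Spc25 was well above background in both channels of all 8 arrays, while its partners Nuf2 and Ndc80 were above background in no control channel. The other subunit, Spc24, was measured in both channels of all 8 arrays and had a ratio of -0.35 ± 0.36, above 0 on 1 array (limma adjusted p = 0.0408), which is short of 2-fold.

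Nuf2 had a ratio of 1.04 ± 0.44 (limma adjusted p = 0.000328), with a bound on the mean over arrays of 2.04-fold and a ratio of 0.28 on array 8. Its call was lost without array 1 (0.95) or array 4 (0.99). A second probe of Nuf2, too dim to test, had a ratio of 0.06. Ndc80 had a ratio of 0.51 ± 0.19 and a bound on the mean of 1.41-fold. By the probes tested, both genes lay above 0 on every array. Both entered through the tumor channel alone, which fixes the sign of their ratio. Of the checkpoint genes, Mad2l1, which helps to hold Cdc20 inactive, rose by 1.13 ± 0.33 (2.19-fold). The other probes of Mad2l1 gave 0.28 and 0.17, and its mean over probes (0.53) did not pass. Bub1b, the checkpoint protein BubR1, rose by 1.03 ± 0.31 (2.04-fold), with a control channel above background on 1 array and a call lost without array 2 (0.97) or array 6 (0.999).

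Cenpa, the histone H3 variant that marks centromeres, had a ratio of 0.80 ± 0.37 (limma adjusted p = 0.000655), above background in both channels of all 8 arrays. The checkpoint kinase Bub1 had a ratio of 0.71 ± 0.31 and only a bound on the mean, of 1.61-fold, since no control channel was above background. Neither reached 2-fold. The kinase Ttk, which starts the checkpoint, and Cenpf were too dim to be tested, with ratios of 0.26 ± 0.24 and 0.19 ± 0.08.

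In the anaphase group, the APC activator Cdc20, the ubiquitin-conjugating enzyme Ube2c and separase (Espl1) were higher in the tumors, while securin (Pttg1) had a ratio below 0. Cdc20 had levels of 8.86, 10.43 and 10.899 in the tumors and of 7.08, 7.52 and 8.04 in control livers. It rose by 2.74 ± 0.86 (6.69-fold, limma adjusted p = 3.80e-05), with ratios of 2.41 to 3.46 on arrays 1 to 7 and 0.83 on array 8. Ube2c, which passes ubiquitin to the targets of the APC, had levels of 8.80, 9.52 and 10.22 in the tumors and of 6.86, 7.47 and 7.80 in control livers. It rose by 2.10 ± 0.31 (4.29-fold, limma adjusted p = 1.37e-06), and its other probe gave 2.14. Espl1, the protease that cuts cohesin, rose by 1.19 ± 0.49 (2.28-fold).

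Pttg1 blocks separase until the APC destroys it. It had log2 levels of 11.88, 12.38 and 12.89 in the tumors and of 12.12, 13.12 and 13.20 in control livers. The tumor was the lower channel on every array, but the ratio of -0.50 ± 0.28 (limma adjusted p = 0.00327) was short of 2-fold and was not called. Arrays 4 and 6 were low in both channels (11.88 and 11.90 in the tumors, 12.16 and 12.12 in the controls), against 12.29 to 12.89 in the other tumors and 13.04 to 13.20 in the other controls. The second probe of Pttg1 also lay below 0 on all 8 arrays (-0.43 ± 0.36).

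Of the cytokinesis group 7 of 8 members were higher, the largest share of the 5 steps. Detection differed between steps too. In this group 7 of 8 were above background in all 8 control channels, against 2 of 8 spindle and 4 of 8 kinetochore genes tested. The part of detection in this ranking was not tested. Birc5 (survivin), which places the chromosomal passenger complex on centromeres, had the largest ratio of the 44 members by the probe and background correction used. At an offset of 16 Mki67 was level with it (3.25 each), and with the processed signals Pbk (4.32) and others were above it (3.41). Its levels were 10.58, 11.11 and 11.57 in the tumors and 7.57, 7.95 and 8.85 in control livers. No tumor came near a control, and Birc5 rose by 3.04 ± 0.51 (8.25-fold, limma adjusted p = 1.56e-06). The 2 other probes of Birc5 gave 1.74 and 0.96, so the size of its rise depends on the probe. Cdca8 (borealin), of the same complex, rose by 1.39 ± 0.22 (2.63-fold), with 0.82 on its other probe.

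Racgap1, which with Kif23 forms the centralspindlin complex of the midzone, had levels of 8.20, 9.33 and 10.03 in the tumors and of 6.66, 6.91 and 7.17 in control livers. It rose by 2.35 ± 0.57 (5.11-fold, limma adjusted p = 1.08e-05), and its other probe gave 1.60. Its partner Kif23 had a ratio of 0.58 ± 0.36 and was above background in no control channel, with a bound on the mean of 1.49-fold. On array 8 the ratio of Kif23 was 0.00057. The remaining members of this step all rose. Kif20a, the midzone kinesin, rose by 2.20 ± 0.63 (4.58-fold), and Prc1, which bundles the microtubules of the midzone, by 2.04 ± 0.55 (4.12-fold). Ect2, which activates RhoA at the cleavage site, rose by 1.84 ± 0.55 (3.57-fold), and anillin (Anln), a scaffold of the contractile ring, by 1.22 ± 0.36 (2.33-fold).

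Members with no detected control signal had ratios that depended on how background was handled. Of the 13 members that did not pass, 7 were above background in no control channel, 1 (Kif4) in 1, and 5 (Foxm1, Hmmr, Cenpa, Cks2 and Pttg1) in all 8. The background step of normexp adds an offset of 50 to both channels, which draws the ratios of dim probes towards 0. With the processed signals of the scanner software, which have no such offset, 36 members were higher and the median ratio was 2.65. Of the 13, 9 then passed as higher, and dim genes had the largest gains: Nuf2 had a ratio of 4.18, Cdk1 of 4.04 and Bub1 of 3.48. Ccnf was lower with the processed signals too (-2.24), and Cenpa (0.80), Cks2 (0.43), Hmmr (0.98) and Pttg1 (-0.40) remained uncalled.

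**Figure D3:**
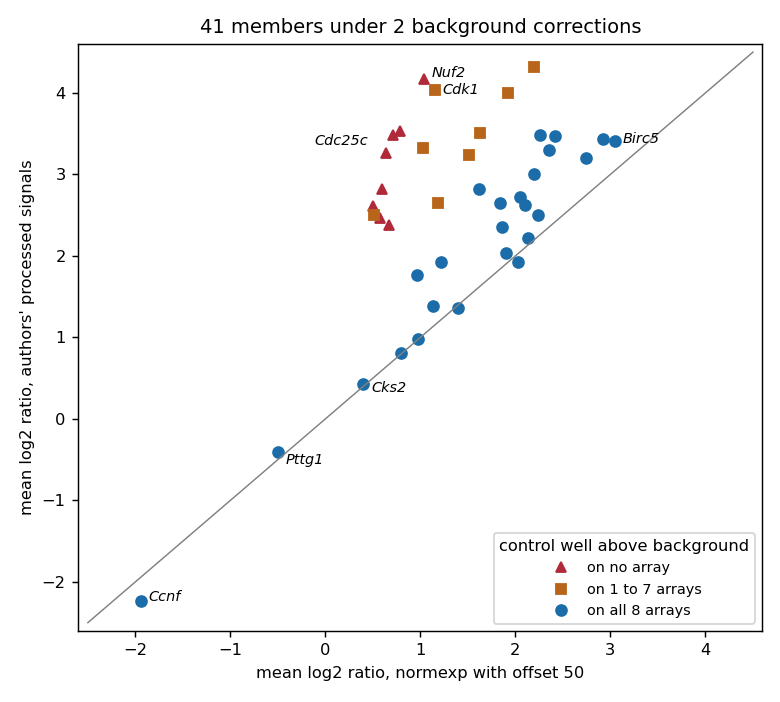
Mean log2 ratio of tumor over control of the 41 members tested, with normexp at an offset of 50 on the horizontal axis and with the processed signals on the vertical axis, coloured by how many control channels were above background. Members measured in no control channel have processed ratios of 2.38 to 4.18, all above the line of equality, and those measured in all 8 have -2.24 to 3.48.

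The size of the ratios varied between tumors. The median ratio over the 41 members was 1.86 in tumor 1, 1.48 in tumor 2, 1.19 in tumor 3, 1.54 in tumor 4, 1.34 in tumor 5, 1.58 in tumor 6, 1.20 in tumor 7 and 0.46 in tumor 8. In tumor 1, 35 of the 41 had a ratio of at least 1, in tumors 2 to 7 between 24 and 30, and in tumor 8 only 8. Yet the number of members above 0 was 38 or 39 on every array, tumor 8 included. Of the 14312 genes tested, 6101 were above 0 on array 8 and 7355 to 7683 on the others. On array 8 some members were barely above 0, such as Kif23 (0.00057), Kif2c (0.012) and Kif11 (0.02). The count also includes members that entered through the tumor channel alone. Tumor 1 had the highest ratio for 27 members and tumor 8 the lowest for 35. How often each tumor was highest, lowest or at a ratio of at least 1 was not counted over all genes tested. These counts therefore do not set the members apart from other genes.

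The members' tumor levels were likewise highest on array 1 and lowest on array 8, and their control levels varied less. The median deviation of a member's tumor level from its own mean was 0.55 on array 1 and -0.75 on array 8, while that of the control level was -0.0021 on array 1 and 0.02 on array 8. The SD over arrays was larger in the tumor channel than in the control channel for 36 of the 41 members, with a median of 0.46 in the tumors and 0.15 in the controls. Over all genes tested the medians were 0.34 in the tumors and 0.19 in the controls. A control level near the floor cannot vary much. Of the 41 members, 25 were above background in all 8 control channels and 8 in none, so the comparison of SDs is limited by detection. The muscle transcripts in the control of array 8 and its dim tumor channel stand beside the low values of tumor 8, and their part in them was not tested. On array 8, 29 of the 41 members were above background in the tumor channel, against 39 to 41 on the other arrays. The median ratio of all genes tested was -0.10 on array 8 and 0.02 to 0.06 on the others. The SD of all ratios, muscle transcripts included, was 0.91 on array 8 and 0.83 to 1.03 over the arrays. Array 8 had the lowest and array 1 the highest median of the members under all 4 background corrections.

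**Figure D4:**
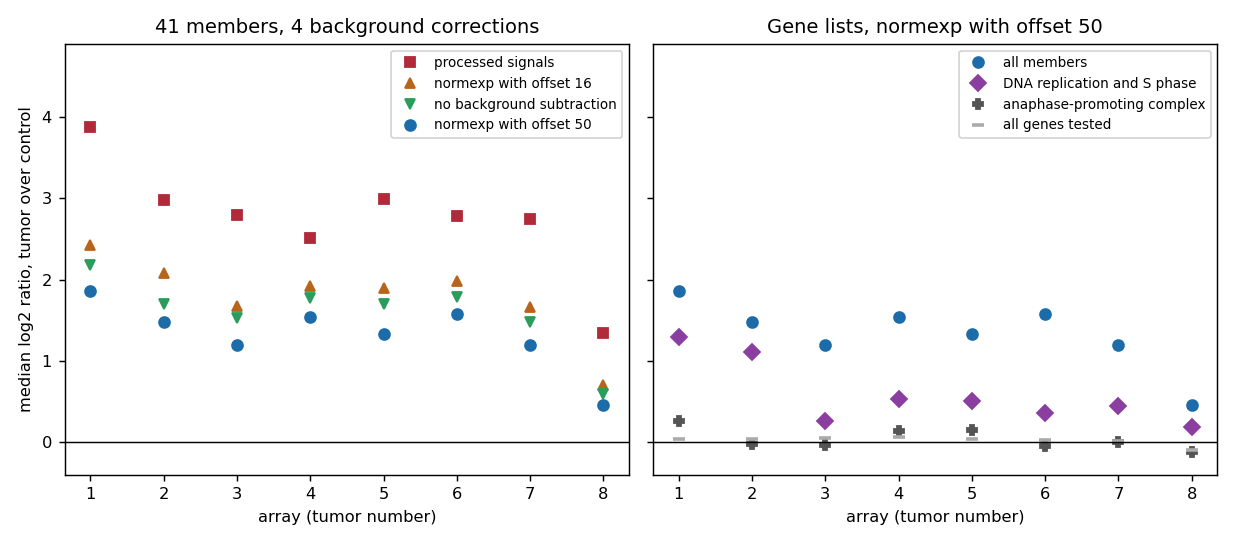
Median log2 ratio of tumor over control (vertical axis) by array (horizontal axis): left, over the 41 members under 4 background corrections; right, over the members, the DNA replication list, the list of the anaphase-promoting complex and all genes tested. The members are highest on array 1 and lowest on array 8 under each correction, and the medians of all genes stay near 0.

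Other genes of division were taken from lists made by role, not by their values. Of 23 further spindle genes tested, 11 were higher (47.8%, against 9.54% of all genes) and 0 lower, with a median ratio of 0.84. Of the 23, 6 were above background in no control channel and 6 in all 8, against 195 and 12603 of all 14312 genes. Some thus entered through the tumor channel alone, which fixes the sign of their ratio. The 11 higher genes included Diaph3, a formin (2.28 ± 0.78), and Kif22, a chromosome motor (1.97 ± 0.48). Tacc3, which stabilises spindle fibres (1.85 ± 0.43), and the scaffold protein Iqgap3 were also among them. Iqgap3 was above background in no control channel and had a bound on the mean of 2.74-fold. The smallest ratios among those called were those of Spag5 (1.16 ± 0.41), Kifc1 (1.14 ± 0.44) and the centrosome kinase Nek2 (1.02 ± 0.40). Spag5 and Ckap2 (1.16 ± 0.51) were above background in no control channel, with bounds on the mean of 2.22-fold and 2.16-fold. Nek2 lost its call without array 1 (0.92) and with arrays 1 and 2 averaged (0.97). On row 2 of the slide alone (arrays 5 to 8), Nek2 (0.83), Kifc1 (0.85), Spag5 (0.97) and Ckap2 (limma adjusted p = 0.0567) did not pass. Of 33 further kinetochore and centromere genes, 4 were higher and 0 lower, with a median of 0.47. That share of 12.1% is close to the 9.54% of all genes. They were Incenp, the scaffold of the passenger complex (1.84 ± 0.40, limma adjusted p = 7.53e-06), Cenpt (1.42 ± 0.45), Dsn1 (1.29 ± 0.53) and Zwint (1.103 ± 0.37).

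Of 20 condensin and cohesin genes, 3 were higher (15%, against 9.54% of all genes), with a median of 0.51: Cdca5 (sororin, 1.79 ± 0.43), the condensin subunit Ncaph (1.73 ± 0.68) and Sgo1, the protector of centromeric cohesin (1.71 ± 0.46). Without array 3, 5 were higher. No APC gene passed in either direction. Of the 16 tested by limma, 5 were higher and 3 lower at an unadjusted p under 0.05, and the median was -0.03. Those counts have no size limit. Without one, 28.7% of all genes were higher even at an adjusted p under 0.05 (limma), so the 5 do not set the list apart. The share of all genes that were lower without a size limit was not counted, so the 3 cannot be set against it. Cdc26, a small APC subunit, had a ratio of -0.999 ± 0.22, just inside the limit, and was called lower without array 1, 3, 4 or 7 (to -1.04), on row 2 alone (-1.12) and with 4 other settings. Anapc4, another subunit, had 0.94 ± 0.25 and was called higher on row 1 alone (1.01) and without arrays 7 and 8 (1.05). The APC activator Fzr1 had a ratio of 0.55 ± 0.26 and the APC inhibitor Fbxo5 one of 0.48 ± 0.53.

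Genes that gate entry into mitosis rose on both sides of the switch. Of 19 tested, 7 were higher (36.8%, against 9.54% of all genes) and 0 lower, with a median of 0.53. Of the 19, 3 were above background in no control channel. The Cdk-activating phosphatases Cdc25a (1.82 ± 0.43) and Cdc25b (1.32 ± 0.39) rose, as did the inhibitory kinases Pkmyt1 (1.69 ± 0.44) and Wee1 (1.302 ± 0.75). Cdkn1a, the Cdk inhibitor p21, rose by 1.61 ± 1.27 and was above 0 on 7 arrays (limma adjusted p = 0.00639). Cks1b (1.20 ± 0.75), a paralogue of Cks2, and the stress gene Gadd45a (1.18 ± 0.64) rose too. On row 1 of the slide alone (arrays 1 to 4) Cdkn1a was 0.70 (limma adjusted p = 0.207) and Gadd45a 0.99, and neither passed. On row 2 alone Wee1 (limma adjusted p = 0.0831) and Cks1b (limma adjusted p = 0.0845) did not pass.

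Upstream, 2 of 21 genes of the E2F, RB and MuvB regulators were higher (9.52%, against 9.54% of all genes), with a median of 0.14: Myc (2.28 ± 0.41, limma adjusted p = 3.01e-06) and Rbl1, which encodes p107 (1.31 ± 0.63). E2f1 (0.91 ± 0.47) and Mybl2 (0.73 ± 0.32), a partner of MuvB at G2/M promoters, did not reach 2-fold. Of 17 G1 genes, 4 were higher (23.5%, against 9.54% of all genes), with a median of 0.19. The Cdk phosphatase Cdkn3 rose by 2.00 ± 0.41, cyclin E1 (Ccne1) by 1.68 ± 0.43, the Cdk4 inhibitor Cdkn2b by 1.66 ± 1.02 and cyclin D1 (Ccnd1) by 1.33 ± 1.11. A second probe gave 0.73 for Ccne1 and 0.69 for Cdkn2b, both short of 2-fold. On row 2 alone Rbl1 (limma adjusted p = 0.0702), Ccnd1 (limma adjusted p = 0.145) and Cdkn2b (limma adjusted p = 0.103) did not pass.

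DNA replication genes stood between these groups. Of 39 tested, 11 were higher (28.2%, against 9.54% of all genes) and 1 was lower, where 5.94% of all genes were, with a median of 0.61. Mcm6, a subunit of the replicative helicase, rose by 2.85 ± 0.99, Uhrf1, which guides maintenance methylation, by 2.68 ± 0.87, and the chromatin assembly factors Chaf1b by 1.86 ± 0.75 and Chaf1a by 1.66 ± 0.57. Mcm4 (1.01 ± 0.56) and Cdt1 (1.05 ± 0.40) were close to the limit, and Mcm4 lost its call when any of arrays 1 to 6 was left out (0.928 to 0.996). Mcm5, another helicase subunit (1.12 ± 0.61), lost its call without array 1 (0.97) and on row 2 alone (0.82), and Cdt1 lost its call on row 1 alone (0.92). Mcm10, which helps to start replication forks, fell by 2.20 ± 0.48 (4.59-fold lower, limma adjusted p = 6.67e-06) and was lower in the tumor on all 8 arrays. Like Ccnf among the members, it was the only called fall of its list. By array, the median ratio of the replication list was 1.29 and 1.11 on arrays 1 and 2 and 0.19 to 0.54 on the others. Array 1 thus led both this list and the members. The median deviation of a gene's control level from its own mean was -0.23 on arrays 1 and 2 and 0.0026 to 0.19 on the others. That of the tumor level was 0.40 on array 1, and 0.11 on both array 2 and array 5. The high ratio of array 2 thus went with a low control level.

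**Figure D5:**
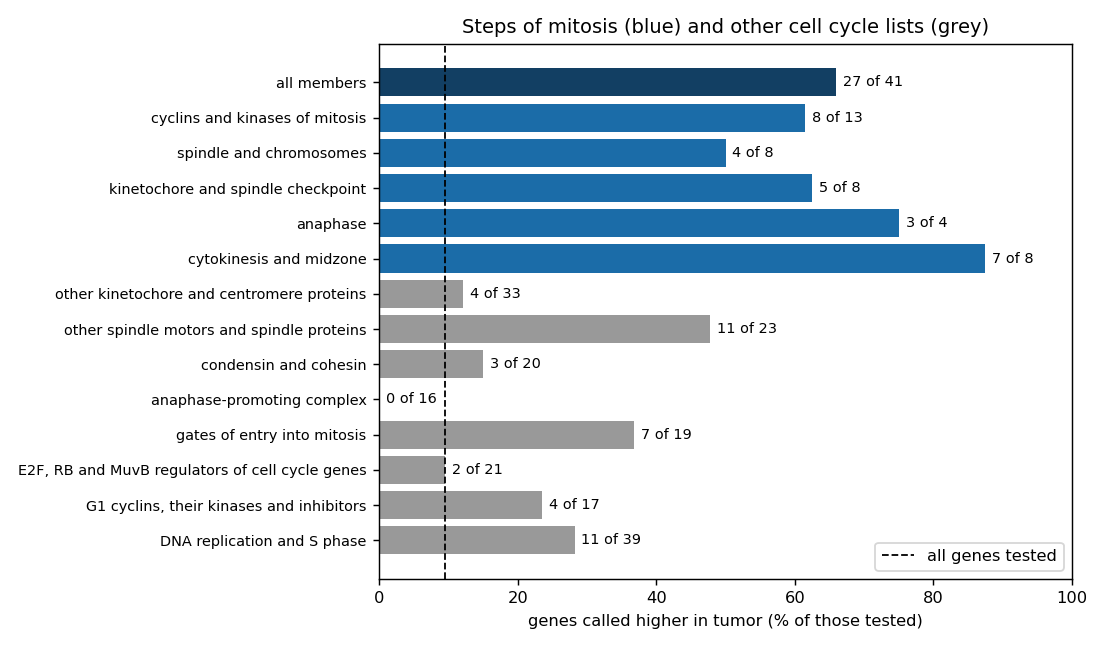
Percent of the tested genes of each list that were higher in tumor than in control liver (horizontal axis), for the members by step and for the other lists, with the number higher and tested beside each bar; the dashed line is the share of all genes tested. The steps of mitosis lie at 50% to 87.5%, and no gene of the anaphase-promoting complex passed. Genes that entered through the tumor channel alone are included.

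Markers of other cell types also moved between tumor and control. Over all genes tested, 9.54% were higher and 5.94% lower, which are the shares to hold beside the counts below. Of 9 stellate cell and fibroblast markers tested, 6 were higher. Their median ratio was 1.45, and by tumor it ran from -0.05 in tumor 8 to 2.38 in tumor 2. Their median level by array was 9.68 to 12.16 in the tumors and 8.36 to 9.61 in the controls. Of 6 bile duct markers tested, 3 were higher, with a median ratio of 1.24 that ran from 0.08 in tumor 8 to 2.10 in tumor 4. Their median level was 7.63 to 10.07 in the tumors and 7.67 to 8.10 in the controls. Leukocyte markers varied without tumor 1 in the lead: 3 of 13 tested were higher, with a median ratio of 0.32 that ran from -0.27 in tumor 8 to 1.53 in tumor 5. Their median level was 8.24 to 10.33 in the tumors and 8.87 to 9.27 in the controls. Of 8 hepatocyte markers, 2 were lower and 0 higher (limma). At an unadjusted p under 0.05 (limma) and any size, 5 were lower and 0 higher, but the share of all genes at that threshold was not counted. Their median ratio was -0.77, with a median level by array of 16.26 to 16.86 in the tumors and 16.84 to 17.22 in the controls. Albumin (Alb) was above background on all 8 arrays in tumor and control, with a ratio of -0.29 ± 1.04. Of 8 endothelial markers, 1 was lower, and of 4 erythroblast markers, 1 was higher and 1 lower. The stellate, bile duct and leukocyte medians were thus lowest in tumor 8, as the members were. What part the mix of cell types has in the rise of the mitotic genes was not tested.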

How the data were processed

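RNA of 8 tumors (Cy5) and of control livers (Cy3) was measured on 8 Agilent arrays of 1 slide. The deposited files hold each spot's median signal and median background as intensity, and processed signals, also intensity. The log10 ratio of red to green that the authors deposited served only as a check. Agilent Feature Extraction is given as 10.9 in the submitters' processing notes and as 10.9.1.1 in the file headers. Mean signals were not in the files, hence the use of medians.

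Background correction was by normexp (offset 50) and normalization by loess within arrays, with control and outlier spots at weight 0 (limma 3.58.1 in R 4.3.3, with data.table version 1.17.8). Channel levels were taken after Aquantile normalization. Probes were named through their accession in RefSeq's annotation (GRCm38.p6), which gave 1 symbol each to 26582 of 55681 probes. Each gene was represented by its brightest probe among those detected (well above background) on 4 or more arrays in either channel. An array counted if at least 0.5 of a probe's spots were so. Mean log2 ratios were set against 0 in limma by lmFit and eBayes, with p-values adjusted by Benjamini-Hochberg over 14312 genes, and genes were called that differed 2-fold or more with an adjusted p under 0.05. A gene above background in no control channel has only a bound, taken against its own control signal or, where higher, the dimmest signal that was well above background, and open to dye bias. The procedure was tested on simulated data.

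All 44 members are named. Levels are given as the lowest, median and highest of 8 arrays for the members with the largest ratios of each step and for members that did not pass, where the control was measured. Of each further list, up to 4 called genes with the largest and up to 3 with the smallest ratios are named, and called genes that carry a limit; Spc24, Cdc26, Anapc4, Fzr1, Fbxo5, E2f1, Mybl2 and Alb were chosen after their values were seen. The members and lists were chosen with earlier results of these data known. The filter on the control channel was also added after the data were seen. Promoter sequences are those of RefSeq (GRCm38.p6), which match by symbol. The number of arrays limits the precision.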

Additional observations from a re-analysis of the deposited data

Results flagged for a closer look

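Of 50 groups of 8 values looked at (the ratios of each of the 44 members and the medians over all members and over each step), 10 had a sample farther from the others than Dixon's critical value allows. For a single group chance gives about 1 in 20. The groups share the same 8 arrays and the medians are taken over the same members, so they are not independent and that rate cannot be set against the 10. In 9 of these the far value was the lowest and belonged to tumor 8. For single members these were Cdk1 (0.32, against 0.98 to 1.37 in the other tumors), Pbk (0.62), Kif2c (0.012), Tpx2 (0.48), Mad2l1 (0.41) and Cdc20 (0.83). For steps they were the medians of the kinetochore and checkpoint genes (0.33), of the anaphase genes (0.56) and of the cytokinesis genes (0.93) in tumor 8. The remaining case was Ccnb2 in tumor 1, at 2.56 and above the other tumors. On array 8 the tumor channel was the dimmest of the 8 and the control held skeletal muscle transcripts. Their part in these values was not tested.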

How the results depend on the processing

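With the alternatives tried, 21 to 36 members were higher in tumor and 1, Ccnf, was lower throughout, and no called member changed sign. The main count was 27. It was 23 with a filter on all 8 arrays and with the probe nearest to 0, 34 at an offset of 16 and 36 with the processed signals. It was 30 on row 1 of the slide alone and 24 on row 2 alone, and 21 with the filter on the control channel, chosen after seeing the data. The median ratio of 1.39 was 2.65 with the processed signals, 1.90 with the filter on all 8 arrays and 1.86 with the filter on the control channel. With each array left out in turn, 26 to 29 members were higher, 1 was lower and the median was 1.34 to 1.45. Over the further lists 42 genes were higher, 78 with the processed signals and 40 to 51 with an array left out. The count of lower genes there was 1. It was 2 with no background subtraction, with median centring, with scaling between arrays and on either row alone, 4 at an offset of 16 and with the processed signals, and 1 to 2 with an array left out. Birc5 and Cdca8 lost their calls by the probe nearest to 0 (0.96 and 0.82), Ccnb1 and Mad2l1 by that probe (0.56 and 0.17) and by the mean of probes. Espl1, Bub1b and Nuf2 lost theirs on row 2 alone (0.93, 0.93 and 0.79). The causes of these changes were not tested, other than the fewer genes or samples that an alternative itself leaves. The test was itself paired by array, since each ratio sets 1 tumor against the control RNA on the same array. The labels do not say whether that control RNA was pooled or matched to the tumor. With only 1 group of ratios, no further pairing was possible. Dim probes are a further limit: for members above background in no control channel, the size of the ratio is set by the handling of background.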
